A study of Mus musculus with 8 samples.

Results

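The p200 family is a group of interferon-inducible genes that lie side by side on mouse chromosome 1, and 5 of its genes, Aim2, Mndal, Ifi203, Ifi204 and Ifi205, were followed here through 8 bulk RNA-seq libraries of the embryonic cortex. They were taken by symbol from a table of 23284 genes, and they were chosen by the spread of their CPM between libraries within both genotypes, so that spread is given below as a description with no test. All libraries came from the dorsal cortex of C57BL/6 mouse embryos at E15.5 (embryonic day), from which the meninges and ganglionic eminences had been removed. A first group of 4 libraries was wild type (ErbB4+/+), and a second group of 4 was labelled ErbB4 KO (ErbB4-/-), a germline loss of the receptor tyrosine kinase ErbB4. The knockout is lethal before birth unless a transgene with the cardiac alpha-MHC promoter supplies ErbB4 to the heart, and the study describes knockout mice as rescued in this way; whether ErbB4+/+ mice carried the transgene is not given in the sources used here. By the study's methods, embryos for harvest came from breeding cages kept for each homozygous line, so the 2 genotypes were not littermates, and genotype and breeding line cannot be told apart. The labels name replicates but not litters or animals, so the p-values below measure the spread between these libraries.

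Proteins of the p200 family usually carry a pyrin domain, which binds other pyrin domains, and a HIN domain, which binds DNA. AIM2 senses double-stranded DNA in the cytosol and recruits the adaptor ASC (Pycard) and caspase-1 (Casp1) into an inflammasome, which matures the cytokines IL-1beta and IL-18 and cleaves gasdermin D. The products of Mndal, Ifi203, Ifi204 and Ifi205 are found largely in the nucleus, and the product of Ifi204 has been linked to DNA sensing through STING (Tmem173). The family is best known from macrophages and other immune cells, where interferons raise its expression, and Aim2 is also found in microglia and neurons. Bulk libraries give the RNA of all cells in the tissue, so fewer cells of a type and less RNA per cell cannot be told apart.

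The 5 genes lie in a cluster at chr1:175281010-175961886 of NCBIM37 (mm9), the build of the authors' alignment, with gene models from GENCODE vM1. The cluster spans 680.9 kb and lies 106.1 Mb from Erbb4 on the same chromosome. Aim2 (chr1:175281010-175396171) is on the plus strand, and Ifi204 (chr1:175677424-175697050), Mndal (chr1:175787352-175872622), Ifi203 (chr1:175850538-175872803) and Ifi205 (chr1:175942129-175961886) are on the minus strand. The models of Mndal and Ifi203 overlap and share 37 exon bases, and RefSeq lists Mndal both as a gene and as a synonym of Ifi203. Of all 50-base windows of the longest coding transcript, the length of a read here, 28% of those of Mndal, 28.9% of Ifi204 and 49.5% of Ifi205 were also present in transcripts of other genes, against 2.94% for Ifi203 and 0.215% for Aim2. Counts of Mndal and Ifi203, and those of Ifi204 and Ifi205, are therefore uncertain where the counting could split or discard shared reads.

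Promoter windows of 300 bases, from 250 bases before the transcription start to 50 after it, were available from RefSeq (GRCm38.p6) for 4 of the 5 genes and are shown because Aim2, Mndal and Ifi203 moved together across libraries while Ifi205 had no reads. They are written 5′ to 3′ on the strand of the gene. Capitals mark GAAANNGAA, the core of the interferon-stimulated response element, and GAGGAAGT, a form of the PU.1 site of myeloid cells, searched on both strands; the 2 motifs do not overlap in these windows. The windows are Aim2 at chr1:173420354-173420653, Mndal at chr1:173880138-173880437, Ifi203 at chr1:173942443-173942742 (the second of its 2 starts) and Ifi205 at chr1:174031706-174032005.
Aim2: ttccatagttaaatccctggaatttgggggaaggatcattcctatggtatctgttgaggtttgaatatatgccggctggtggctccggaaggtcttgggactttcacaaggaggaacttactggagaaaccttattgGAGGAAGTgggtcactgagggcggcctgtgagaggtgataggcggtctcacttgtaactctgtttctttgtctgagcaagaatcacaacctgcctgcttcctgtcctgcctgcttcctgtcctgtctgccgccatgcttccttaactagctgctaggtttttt
Mndal: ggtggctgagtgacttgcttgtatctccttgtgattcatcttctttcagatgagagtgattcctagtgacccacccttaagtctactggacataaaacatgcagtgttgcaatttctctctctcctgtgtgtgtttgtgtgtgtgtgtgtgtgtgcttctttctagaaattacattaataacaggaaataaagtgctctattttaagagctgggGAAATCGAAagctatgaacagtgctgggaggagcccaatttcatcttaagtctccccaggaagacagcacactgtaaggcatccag
Ifi203: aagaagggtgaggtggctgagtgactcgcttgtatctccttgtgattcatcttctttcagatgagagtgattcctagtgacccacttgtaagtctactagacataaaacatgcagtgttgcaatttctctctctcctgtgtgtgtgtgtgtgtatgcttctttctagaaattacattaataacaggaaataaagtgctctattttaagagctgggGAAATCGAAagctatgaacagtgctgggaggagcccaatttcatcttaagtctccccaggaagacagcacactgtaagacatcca
Ifi205: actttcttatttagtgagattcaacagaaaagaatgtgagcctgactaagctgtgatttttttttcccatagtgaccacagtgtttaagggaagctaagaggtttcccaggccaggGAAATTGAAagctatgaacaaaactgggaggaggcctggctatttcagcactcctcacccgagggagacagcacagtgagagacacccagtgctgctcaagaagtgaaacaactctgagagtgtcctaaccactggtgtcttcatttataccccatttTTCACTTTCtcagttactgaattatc

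The windows of Mndal and Ifi203 were near copies, with 94.3% identity over 299 aligned columns, and both held GAAATCGAA. The first base of this match lay 36 bases before the start in Mndal and 35 bases before the start in Ifi203. Ifi205 held 2 matches to GAAANNGAA and aligned to Ifi203 over 91 columns at 75.8% identity. GAAANNGAA occurs in 8.56% of 32851 promoters of the same length. With a further A at its end, as it was first searched, the motif occurs in 3.44% of them and at the same number of sites, 5, in the windows of these genes. Aim2 held no match to it and 1 match to GAGGAAGT, which occurs in 3.2% of those promoters. TTCNNNGAA, the core of the interferon gamma-activated (GAS) element, occurs in 8.3% of promoters and was found in none of these 4 windows. A further window of Mndal at its other start held GAAANNGAA on the minus strand, and the other window of Ifi203 held none of the 3 motifs.

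Library totals ran from 28205703 to 48871480 counted reads, with no difference found between genotypes (exact two-sided permutation test, p = 0.257), and the TMM scaling factors lay between 0.994 and 1.01. ErbB4+/+ replicate 1 was the shallowest library and stood apart on the first principal component, which held 30.6% of the variance. Erbb4 was 18.3 ± 6.81 CPM (counts scaled to library size; SD, n = 4) in ErbB4+/+ and 22.4 ± 1.92 CPM (n = 4) in the libraries labelled ErbB4-/-, with an adjusted p of 0.812 (edgeR's quasi-likelihood test with Benjamini-Hochberg adjustment), so its transcript was not lower in the libraries labelled ErbB4-/-, and the names of groups below follow the labels. Xist was at least 983 CPM in 3 of the ErbB4+/+ libraries and at most 3.82 CPM in the other 5, where the Y-linked Ddx3y was 76.4 to 80.9 CPM, so sex was not balanced between genotypes. Of 14696 genes tested between genotypes with edgeR, 4 passed an adjusted p of 0.05, and 23 of 16682 did with DESeq2.

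Aim2, the DNA sensor of the family, was its most abundant transcript and gave 63.8% of the 3426 reads on all 12 p200 rows in the table. It was measured at 6.06, 10.9, 10.6 and 9.35 CPM in ErbB4+/+ replicates 1 to 4 and at 2.84, 9.68, 6.40 and 6.86 CPM in ErbB4-/- replicates 1 to 4, from 140 to 407 reads per library. Replicate 1 was the lowest library in both groups, and the groups overlapped. The highest library was 3.83-fold above the lowest, and this factor was 1.79 within ErbB4+/+ and 3.41 within ErbB4-/-. The 95% Poisson interval of ErbB4-/- replicate 1, 2.39 to 3.35 CPM, lay below that of each other library, of which the nearest was ErbB4+/+ replicate 1 at 5.19 to 7.05 CPM. These intervals cover counting error only.

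Mndal, a nuclear member with a known role in limiting cell growth, showed the widest range. It was measured at 0.499, 2.50, 1.96 and 2.65 CPM in ErbB4+/+ replicates 1 to 4 and at 0.325, 3.56, 1.33 and 1.53 CPM in ErbB4-/- replicates 1 to 4. Both replicates numbered 1 were again the lowest, with 14 and 16 reads, while ErbB4-/- replicate 2 was the highest with 124. The highest library was 11-fold above the lowest, and the 2 lay in the same genotype. Their 95% Poisson intervals were 0.186 to 0.528 CPM and 2.96 to 4.25 CPM.

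Ifi203, a nuclear DNA-binding member, followed the same order at its ends. It was measured at 0.749, 2.76, 2.97 and 3.11 CPM in ErbB4+/+ replicates 1 to 4 and at 0.67, 4.48, 2.38 and 1.37 CPM in ErbB4-/- replicates 1 to 4, from 21 to 156 reads. Replicate 1 was the lowest library of each group, ErbB4-/- replicate 2 was the highest of all, and the groups overlapped. The highest library was 6.69-fold above the lowest. The deepest library of the series, ErbB4-/- replicate 1, and the shallowest, ErbB4+/+ replicate 1, were thus the 2 lowest libraries for Aim2, Mndal and Ifi203.

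Ifi204, the member linked to STING, was near the limit of detection. It had 2, 3, 11 and 4 reads in ErbB4+/+ replicates 1 to 4 and 3, 5, 3 and 5 reads in ErbB4-/- replicates 1 to 4, or 0.0609 to 0.287 CPM. ErbB4+/+ replicate 3 was the highest, but its 95% interval of 0.143 to 0.513 CPM overlapped those of all other libraries. Ifi205, a member described in macrophages, had 0 reads in all 8 libraries, which allows a level of up to 0.0609 CPM in the deepest library and up to 0.107 CPM in the shallowest, at 3 counts of the total; 49.5% of its windows of read length are shared with other genes.

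**Figure D1:**
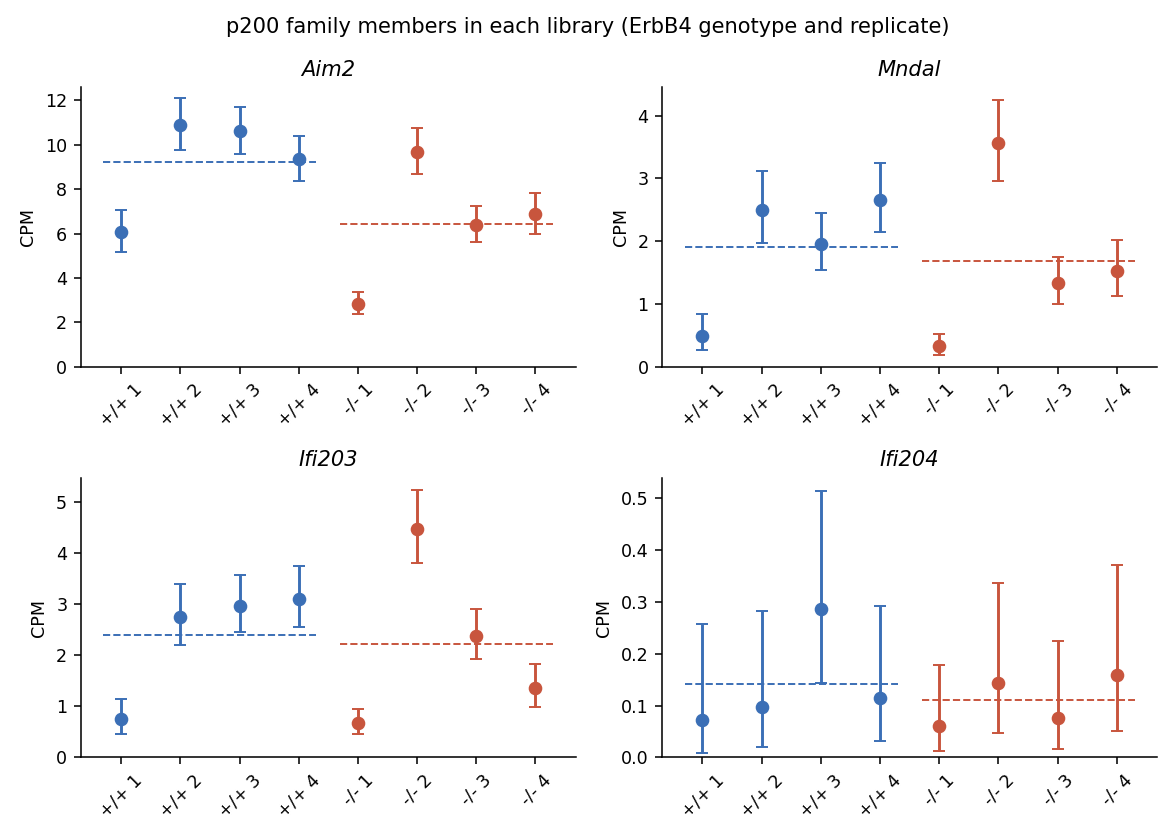
CPM of Aim2, Mndal, Ifi203 and Ifi204 in each of 8 libraries (blue, ErbB4+/+; red, ErbB4-/-; number, replicate), with 95% Poisson intervals of the count as bars and the group mean of 4 libraries as a dashed line. Replicate 1 of each genotype is the lowest of its group in Aim2, Mndal and Ifi203, and ErbB4-/- replicate 2 is the highest of all libraries in Mndal and Ifi203.

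The other p200 rows were at or near 0. Ifi202b, whose product lacks the pyrin domain and opposes AIM2, had 10 reads over all libraries. Of these, 6 were in ErbB4-/- replicate 1, 2 in ErbB4+/+ replicate 1 and 2 in ErbB4-/- replicate 3. Those libraries were the lowest for Aim2 and Mndal, and the others had 0 reads of Ifi202b. At so few reads this opposite order was not tested. AI607873 (Ifi207) had 24 reads, Pyhin1 (Ifi209) and Pydc3 (Ifi208) had 5 each, Pydc4 (Ifi213) had 3, Mnda (Ifi211) had 1 and BC094916 had 0. Of the 12 rows, 3 passed the filter on low counts, and these were Aim2, Mndal and Ifi203.

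Levels were compared between genes as CPM per kb of the longest transcript. Aim2 was at 3.25 ± 0.778 CPM per kb in ErbB4+/+ and 2.27 ± 0.988 in ErbB4-/- (SD, n = 4 each). Mndal followed at 0.997 ± 0.515 and 0.884 ± 0.711, and Ifi203 at 0.638 ± 0.295 and 0.592 ± 0.442. Ifi204 was at 0.0602 ± 0.0415 and 0.0466 ± 0.0205, and Ifi205 at 0. Aim2 was above Mndal per kb in 8 of 8 libraries and Ifi203 above Ifi204 in 8 of 8, whereas the means of Mndal and Ifi203 differed by less than the SD of Mndal in both groups, though by more than the SD of Ifi203 in ErbB4+/+, with Mndal above Ifi203 in 7 of 8. The gap depended on the length used: per kb of all annotated exons Ifi203 was at 0.357 and 0.332 CPM in ErbB4+/+ and ErbB4-/-, and Mndal, with a single transcript, stayed at 0.997 and 0.884, a gap in ErbB4+/+ above the SD of Mndal.

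The libraries that were low for Mndal were also low for Ifi203, and the 95% Clopper-Pearson intervals of the split of reads between these overlapping genes overlapped among all 8 libraries. Mndal held 40% of the reads of both genes in ErbB4+/+ replicate 1 (interval 23.9 to 57.9%) and 44.3% in ErbB4-/- replicate 2 (38.4 to 50.3%), the highest library for both genes. The lowest share was 32.7% (20 to 47.5%) in ErbB4-/- replicate 1 and the highest was 52.7% (42 to 63.3%) in ErbB4-/- replicate 4. Aim2 varied less: its reads per read of Mndal and Ifi203 together were 4.86 in ErbB4+/+ replicate 1, 2.86 in ErbB4-/- replicate 1 and 1.2 in ErbB4-/- replicate 2.

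The spread within genotypes was then set beside that of all genes tested, as a description, since it had chosen the members. The biological coefficient of variation, edgeR's estimate of the spread between replicates beyond counting error, was 56.5% for Mndal, 50% for Ifi203 and 29.1% for Aim2, against 10.7% in common over all genes. These values ranked 34, 52 and 404 of 14696. Among the 500 genes nearest in abundance the median was 17.5% for Mndal, 16.4% for Ifi203 and 12.1% for Aim2, and 3, 8 and 2 of those genes were higher.

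**Figure D2:**
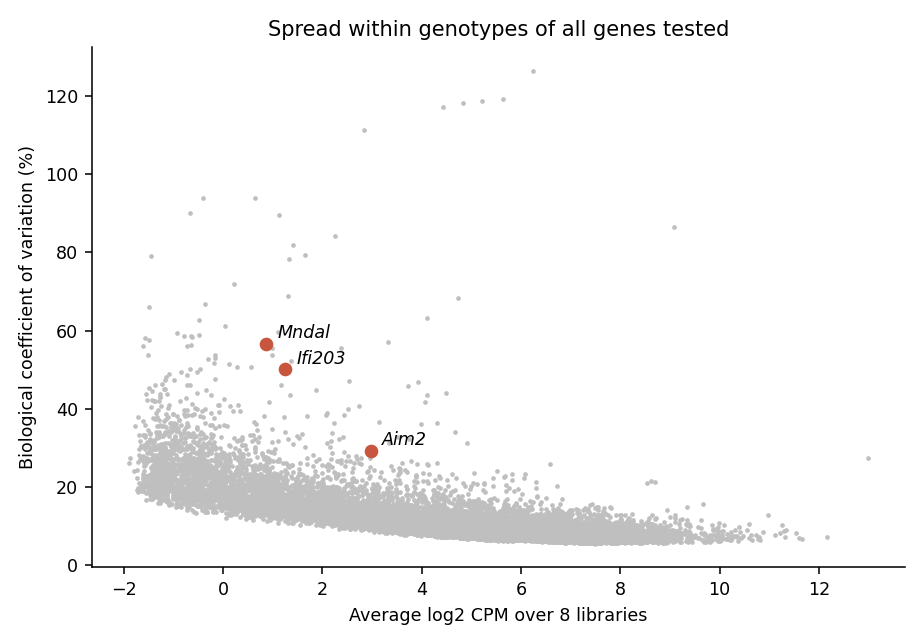
Biological coefficient of variation (%) of 14696 genes against their average log2 CPM over 8 libraries; each grey point is a gene and the red points are Mndal, Ifi203 and Aim2. The 3 genes lie at 56.5, 50 and 29.1%, above nearly all genes of like abundance.

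None of the 3 members tested passed the test between the libraries labelled ErbB4-/- and ErbB4+/+, which 0.0272% of all genes tested passed; Ifi204 and Ifi205 were below the filter on low counts. Aim2 was 9.22 ± 2.21 CPM in ErbB4+/+ and 6.45 ± 2.81 CPM in ErbB4-/- (SD, n = 4 each), a log2 fold change of -0.53 with an SE of 0.30 and an adjusted p of 0.81 (edgeR). The 95% interval of this log2 fold change ran from -1.18 to 0.12, and the exact permutation test of mean log2 CPM gave p = 0.257, where 0.0286 is the smallest p that 4 against 4 libraries allow. Mndal was 1.90 ± 0.982 and 1.69 ± 1.36 CPM, a log2 fold change of -0.22 (SE 0.58, interval -1.48 to 1.05, edgeR adjusted p = 0.942). Ifi203 was 2.40 ± 1.11 and 2.23 ± 1.66 CPM, a log2 fold change of -0.14 (SE 0.51, interval -1.26 to 0.98, edgeR adjusted p = 0.96). With the level of Xist as a covariate, since sex was not balanced, the log2 fold changes were -0.46 for Aim2, -0.54 for Mndal and -0.37 for Ifi203. All ErbB4-/- libraries had low Xist, and replicate 4 was the only such ErbB4+/+ library. The genotype difference in that fit thus rested largely on ErbB4+/+ replicate 4, and sex and genotype can hardly be told apart. The spread by which the members were chosen enters the error of these tests. Ifi204 was 0.142 ± 0.098 and 0.11 ± 0.0484 CPM, with an exact permutation p of 0.714 for the difference of mean CPM. Without ErbB4+/+ replicate 3 its ErbB4+/+ mean was 0.09385 CPM, below that of ErbB4-/-.

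The direction of Mndal and Ifi203 rested on single libraries. Without ErbB4-/- replicate 1 the log2 fold change of Mndal was 0.15 and that of Ifi203 was 0.18, and without ErbB4-/- replicate 2 they were -0.90 and -0.73. Leaving out ErbB4-/- replicate 2 also moved the ErbB4-/- means, from 1.686 to 1.06 CPM for Mndal and from 2.225 to 1.473 CPM for Ifi203. Aim2 stayed lower in ErbB4-/- whichever library was left out, with log2 fold changes between -0.80 and -0.27 and adjusted p-values from 0.615 to 0.984 (edgeR). The groups overlapped for the 4 members with reads, against 3.34% of genes tested whose groups did not.

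**Figure D3:**
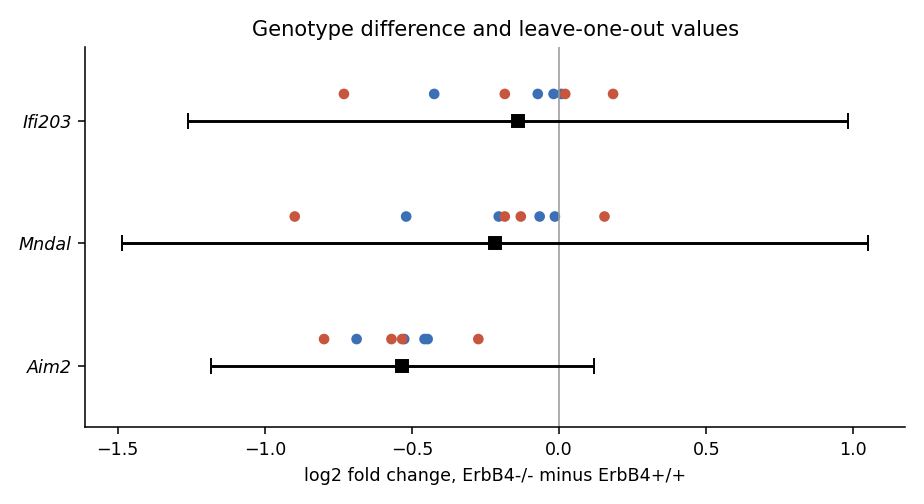
log2 fold change between ErbB4-/- and ErbB4+/+ for Aim2, Mndal and Ifi203 from the fit across all genes (black squares, bars are 95% intervals), with the values after leaving out each library in turn as points above (blue, an ErbB4+/+ library left out; red, an ErbB4-/- library left out). All 3 intervals hold 0, and the points of Mndal and Ifi203 fall on both sides of 0.

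The 3 measured members moved together over the 8 libraries. Pearson's r of log2 CPM was 0.954 between Mndal and Ifi203 (Spearman's rho 0.952), 0.895 between Aim2 and Mndal (rho 0.81) and 0.837 between Aim2 and Ifi203 (rho 0.762), as a description over 3 pairs of genes that share libraries, and of which Mndal and Ifi203 share exon sequence. Without the 2 libraries farthest from the median, r was 0.798, 0.805 and 0.804. After the mean of each genotype was removed, r was 0.953, 0.957 and 0.904.

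Genes elsewhere were ranked by the same measure of likeness over 8 libraries. The gene most like Aim2 was Rgs5, a marker of pericytes that lies 3.66 Mb from the cluster (r 0.948, and 0.916 without the 2 farthest libraries). Rgs5 was 25.8, 41.1, 37.5 and 38 CPM in ErbB4+/+ replicates 1 to 4 and 21.8, 34.2, 30.6 and 29.9 CPM in ErbB4-/- replicates 1 to 4, with replicate 1 the lowest library of each group. The next were Gm2061 (r 0.925), 11.3 Mb away, then Erich1, Gm98, Mndal, Gas5, Ceacam1, Cpsf4l, Gm6654 and 4933421O10Rik, with r from 0.906 down to 0.858. Without the 2 farthest libraries r was 0.895 for Gm2061 and ran from 0.898 for Ceacam1 down to 0.503 for Cpsf4l and 0.128 for Gm6654 among the others. The gene most like Ifi203 was Fmn2, an actin nucleator whose gene begins 0.47 Mb beyond the cluster (r 0.957, and 0.868 without the 2 farthest libraries). Fmn2 was 44.5, 61.2, 60.3 and 58.1 CPM in ErbB4+/+ and 47.3, 63.9, 55.1 and 54.2 CPM in ErbB4-/-, again lowest in replicate 1 of each. It was followed by Mndal, Arnt2, Chrna5, Iars2, Ncoa4, Rgs4, Pisd-ps2, Sp6 and Lat, with r from 0.954 down to 0.885, and from 0.926 for Chrna5 down to 0.554 for Iars2 without the 2 farthest libraries. The range of Rgs5 over libraries was 1.88-fold and that of Fmn2 1.44-fold, smaller than the 3.83-fold of Aim2 and 6.69-fold of Ifi203.

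**Figure D4:**
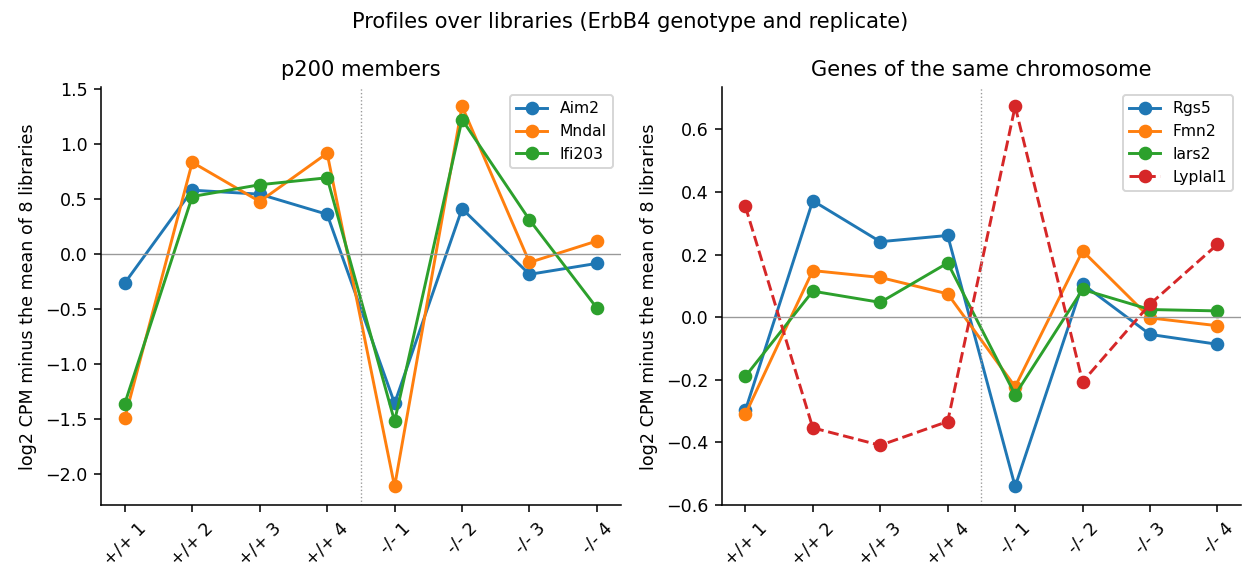
log2 CPM minus the mean of 8 libraries for Aim2, Mndal and Ifi203 (left) and for Rgs5, Fmn2, Iars2 and Lyplal1, genes of the same chromosome (right), with separate vertical scales; lines only join the libraries of a gene, and the dotted line parts ErbB4+/+ from ErbB4-/-. Replicate 1 of each genotype is low in all genes shown except Lyplal1, where it is high.

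Several genes that were alike lay on the same chromosome near the cluster. Of 253 tested genes outside the family within 20 Mb of the cluster, 13 (5.14%) had an absolute r above 0.8 with Ifi203, against 7 of 572 (1.22%) on the rest of chromosome 1 and 122 of 13564 (0.899%) on other chromosomes. For Aim2 the counts were 10 of 253 (3.95%), 1 of 572 (0.175%) and 68 of 13564 (0.501%). Over all genes tested these shares were 1.01% for Ifi203 and 0.572% for Aim2. Genes of both signs were present: r was positive for 9 of the 13 and 7 of the 10, and negative for the others. Lyplal1, 11.9 Mb away, had an r of -0.945 with Aim2 and -0.911 with Ifi203, and its level was highest in ErbB4-/- replicate 1 at 12.4 CPM and next in ErbB4+/+ replicate 1 at 9.95 CPM. Iars2, Gm2061, Rgs4, Rgs5 and Lyplal1 were among the alike genes of both members.

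This pattern was weaker or turned without the 2 most extreme libraries together. With 6 libraries an absolute r above 0.8 was also reached by more genes of other chromosomes. Without the 2 libraries farthest from the median of Ifi203 (replicate 1 of each genotype), the share within 20 Mb was 3.95% and that on other chromosomes 3.66%. Without the 2 farthest from the median of Aim2 (ErbB4-/- replicate 1 and ErbB4+/+ replicate 2), the shares were 5.14% and 3.87%. For Mndal the near share was 4.74% against 0.944% on other chromosomes over 8 libraries, and 4.74% against 5.93%, with 5.24% on the rest of chromosome 1, without its 2 farthest libraries, so the order turned. Leaving out ErbB4+/+ replicate 1 alone, the shares for Ifi203 were 5.14% and 1.11%. Without ErbB4-/- replicate 1 alone they were 13.4% and 10.8% for Ifi203 and 4.74% and 2.82% for Aim2. Without ErbB4-/- replicate 2 the near share for Ifi203 was 7.91%, and without ErbB4+/+ replicate 1 that for Aim2 was 7.91%, against 2.9% and 1.84% on other chromosomes. The threshold of 0.8 and the distance of 20 Mb were chosen after the values were seen, and neighbouring genes in the same libraries are not independent.

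**Figure D5:**
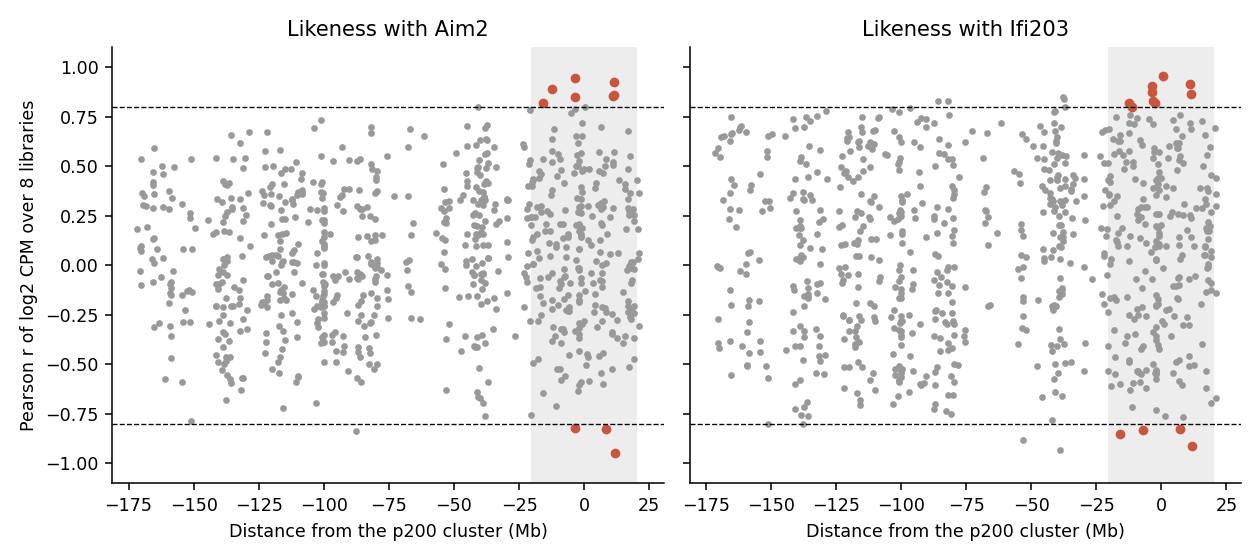
Pearson's r of log2 CPM over 8 libraries with Aim2 (left) and Ifi203 (right) for tested genes of chromosome 1 outside the family, against the distance of the gene from the p200 cluster in Mb. Shading marks 20 Mb on either side and dashed lines mark r of 0.8 and -0.8. Red points mark the 10 and 13 genes within 20 Mb that lie beyond the lines. Alike genes lie on both sides of the cluster and at both signs.

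Genes directly beside the cluster were not called between genotypes. Cadm3, a neuronal adhesion molecule on the opposite strand whose span overlaps that of Aim2 by 16817 bases, was 233 ± 16.4 and 253 ± 10.6 CPM with ErbB4-/- replicate 1, the lowest library for Aim2, the highest for Cadm3 at 261.8 CPM, and ErbB4+/+ replicate 1, the next lowest for Aim2, the lowest for Cadm3 at 215 CPM. The libraries do not mark strand. An Aim2 exon of 95 bases lies within the span of Cadm3, the exons of the genes share 0 bases, and the part of Cadm3 reads in the Aim2 counts was not tested. Of 11 tested genes within 1 Mb, 1 had groups that did not overlap, against 3.34% of all genes tested. It was Tagln2, at 35.5 ± 2.01 and 29.4 ± 3.27 CPM (log2 fold change -0.28, SE 0.09, unadjusted p = 0.00882 and adjusted p = 0.81 from edgeR).

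The genes that act with the members were measured beside them. Pycard, the adaptor of the AIM2 inflammasome, was 1.11 ± 0.182 CPM in ErbB4+/+ and 1.18 ± 0.0869 CPM in ErbB4-/-, and Casp1, its protease, 0.552 ± 0.3 and 0.479 ± 0.188 CPM. Gsdmd, the pore former, was 3.31 ± 0.367 and 2.87 ± 0.308 CPM, Il18 was 4.54 ± 1.18 and 4.46 ± 0.426 CPM, and Il1b had 18 reads in all. Of 25 tested genes of cytosolic DNA sensing and the inflammasome, 0 passed the adjusted threshold, and 2 were lower and 0 higher in ErbB4-/- at an unadjusted p under 0.05, where 5.53% of all genes tested lay. Those 2 were Irf3, a transcription factor downstream of STING (33 ± 3.19 against 29.2 ± 1.08 CPM, log2 fold change -0.18), and Rnaseh2c, a subunit of ribonuclease H2 (28.2 ± 5.09 against 22.2 ± 1.42 CPM, log2 fold change -0.34). The median log2 fold change of the list was -0.06, against 0.00 over all genes tested.

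The receptors and targets of interferon were measured in the same libraries. Of 15 tested interferon receptor and JAK-STAT genes, 0 passed the adjusted threshold and 1, Ifngr2, a subunit of the interferon gamma receptor, was lower at an unadjusted p under 0.05 (88 ± 22.8 against 63 ± 3.1 CPM). Ifnar1, a subunit of the type I interferon receptor, was 124 ± 17.2 and 110 ± 3.75 CPM. The summed level of these 15 genes had an r of 0.585 with Aim2 and 0.489 with Ifi203 over 8 libraries. Of 36 tested interferon-stimulated genes, 0 passed the adjusted or the unadjusted threshold (edgeR), and their median log2 fold change was 0.06. Their summed level, over all 61 rows of the list, ran from 122 to 145 CPM in ErbB4+/+ and from 126 to 158 CPM in ErbB4-/-, and its r over 8 libraries was -0.06 with Ifi203 and -0.19 with Aim2. The 2 libraries low in p200 transcripts, replicate 1 of each genotype, were at 145 and 140 CPM of this sum, the highest of ErbB4+/+ and the second highest of ErbB4-/-. ErbB4-/- replicate 2, the highest library for Mndal and Ifi203, was at 158 CPM, the highest of all libraries. The part of interferon in the levels of the p200 members was not tested. Ifnb1 had 0 reads.

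Markers of the cell types in which the family is known were given by their summed levels. The 18 microglia and macrophage markers summed to 106 to 125 CPM in ErbB4+/+ and 106 to 130 CPM in ErbB4-/-, with no gene at 0 in all libraries and an r of -0.08 with Ifi203 and -0.29 with Aim2. Replicate 1 of each genotype, lowest in the p200 members, was at 125 and 121 CPM of this sum. ErbB4-/- replicate 2, the highest library for Mndal and Ifi203, was at 130 CPM, the highest of all libraries. The part of microglia in the levels of the p200 members was not tested. Csf1r and Cx3cr1, abundant markers of this list, were at 14.5 and 12.3 CPM in ErbB4+/+ and 15.7 and 12.5 CPM in ErbB4-/-. The 16 lymphocyte, neutrophil and monocyte markers summed to 0.399 to 0.927 CPM in ErbB4+/+ and 0.508 to 0.833 CPM in ErbB4-/-, with Cd3g and Cd8a at 0 in all libraries, and none passed the filter. The 16 endothelial and pericyte markers summed to 235 to 261 CPM and 247 to 262 CPM. Their sum had an r of 0.836 with Ifi203, which was 0.318 without Rgs5, a member of that list that is also among the genes near the cluster. With Aim2 the r was 0.599, and -0.12 without Rgs5. The part of vascular cells in the levels of the p200 members was not tested.

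The tissue matched its label by its markers. Neurod6 and Neurod2, which mark excitatory neurons of the dorsal telencephalon, were at 977 and 594 CPM in ErbB4+/+ and 957 and 583 CPM in ErbB4-/-. Markers of the ganglionic eminences, a tissue that the dissection aimed to remove, summed to 520 to 703 CPM and 513 to 716 CPM. Whether their reads came from remaining eminence tissue or from cells within the cortex was not tested. Meningeal fibroblast markers summed to 48.7 to 59.4 CPM and 49.1 to 63.6 CPM. Of 9 tested meningeal markers, 1 was lower and 1 higher in ErbB4-/- at an unadjusted p under 0.05, where 5.53% of all genes lay. These were Crabp2 (4.265 against 2.724 CPM) and Ogn (0.8129 against 2.922 CPM), each with an edgeR adjusted p of 0.81. Red blood cell genes summed to 33.3 to 58.2 CPM in ErbB4+/+ and 23.4 to 36.9 CPM in ErbB4-/-, with the globin genes Hba-a1, Hba-a2 and Hbb-b2 at 0 in all libraries. Whether reads shared among globin genes were discarded in the counting was not checked. These counts of 0 therefore do not show that the transcripts were absent, and the sums may be too low. Of 5 tested red blood cell genes, 0 passed the adjusted threshold and 2 had a positive log2 fold change. At an unadjusted p under 0.05, where 5.53% of all genes tested lay, 2 were lower in ErbB4-/- and 0 higher. These were the embryonic globins Hba-x (6.24 ± 0.955 against 2.71 ± 1.63 CPM) and Hbb-y (26.6 ± 9.14 against 8.20 ± 6.89 CPM), with edgeR adjusted p = 0.74 and 0.81. Alas2, among the 3 most abundant genes of the list, was 11.95 ± 1.115 against 13.85 ± 2.435 CPM. The r of the ganglionic eminence, meningeal and red blood cell sums was -0.18, -0.16 and -0.08 with Ifi203 and -0.14, -0.14 and 0.46 with Aim2. The part of blood in the levels of Aim2 was not tested.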

How the data were processed

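RNA from 4 ErbB4+/+ and 4 ErbB4-/- samples of embryonic dorsal cortex was sequenced by the authors as non-stranded, polyA-selected, single-end libraries with 50-base reads. The authors mapped them with HISAT on mm9 and obtained gene counts from HTSeq; the deposited values are raw counts, and a deposited DESeq2 table of the authors' own comparison (means, fold changes and p-values) was not used. The members and gene lists were chosen with earlier results of these data known.

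Counts were tested with edgeR 4.0.16 (R 4.3.3) by the quasi-likelihood test after filterByExpr at its defaults and TMM scaling, with Benjamini-Hochberg adjustment over 14696 genes and a threshold of 0.05. CPM use TMM-scaled totals, and log2 CPM a prior count of 2. Depth ran from 28205703 to 48871480 counts per library, and 95% intervals are exact Poisson for counts and Clopper-Pearson for shares. Single genes were also tested by exact permutation over 70 assignments. The fit was tested on simulated data. The interferon motif searched in promoters was shortened by its last base after the matches had been seen, which left the matched sites of the members in place and raised the share of all promoters that hold it. Named genes are all members, the other p200 rows, the 10 genes most like Aim2 and Ifi203, tested genes within 1 Mb, and in each list the genes called and the 3 most abundant, some of which are not reported here; other genes named were chosen after their values were seen. Alternatives were RLE scaling, totals alone, DESeq2 1.42.0, other filters and prior counts, Xist as a covariate, a replicate block and leaving out each library.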

Additional observations from a re-analysis of the deposited data

Results flagged for a closer look

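In groups of 4 libraries, 9 of 114 groups examined had a library whose gap to its neighbour took up most of the range of its group. The 114 groups hold those of Mndal in duplicate, and the endothelial and pericyte markers both with and without Rgs5, so they are not all distinct. Chance gives about 1 in 20 groups, but 5 of the 9 were chosen on these values: Ifi203 and the p200 sum by the spread of the members, and Lyplal1, Atf6 and Zbtb37 for following Ifi203, so the count is a description and cannot be read against that rate. Ifi203 in ErbB4+/+ replicate 1 was 0.749 CPM, with the other 3 libraries at 2.76 to 3.11 CPM. The sum of all p200 rows in the same library was 7.53 CPM, with the others at 15.4 to 16.3 CPM. Also in ErbB4+/+ replicate 1, Lyplal1 was 9.95 CPM (others 5.86 to 6.18), Atf6 34.6 CPM (others 49.6 to 51.8) and Zbtb37 5.92 CPM (others 12.4 to 13.5). Dusp23, a phosphatase gene within 1 Mb of the cluster, was 4.99 CPM in ErbB4+/+ replicate 4 (others 3.15 to 3.37) and 4.08 CPM in ErbB4-/- replicate 2 (others 2.15 to 2.22). The endothelial and pericyte markers summed to 262 CPM in ErbB4-/- replicate 2 (others 247 to 248). The meningeal fibroblast markers summed to 63.6 CPM in ErbB4-/- replicate 3 (others 49.1 to 51.4).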

How the results depend on the processing

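Aim2, Mndal and Ifi203 did not pass the adjusted threshold under any alternative run, with adjusted p-values from 0.597 to 1. Leaving out 1 library at a time, the log2 fold change lay between -0.80 and -0.27 for Aim2, between -0.90 and 0.15 for Mndal and between -0.73 and 0.18 for Ifi203. Ifi203 was reversed without ErbB4+/+ replicate 4 (0.01), ErbB4-/- replicate 1 (0.18) or ErbB4-/- replicate 4 (0.02), and Mndal without ErbB4-/- replicate 1 (0.15). The cause was not tested. The count of genes called over all genes, 4 as reported, was 1 with RLE scaling, 23 with DESeq2 (of 16682 tested), and 1 to 13 when a library was left out. With the replicate number as a block it was 1, and the log2 fold changes were -0.59 for Aim2 (unadjusted p = 0.00304, adjusted p = 0.597), -0.30 for Mndal and -0.21 for Ifi203. The labels do not say that a number marks a shared litter or day; same-numbered libraries deviated together with r of 0.0837, 0.135, 0.0476 and 0.0236, and 2 of 4 matched best with their own number, so the numbers were not taken as pairs. The share of alike genes within 20 Mb was 1.19% for Aim2 and 1.58% for Ifi203 at r above 0.9, against 0.0295% and 0.0664% on other chromosomes, and was 4.74% and 3.16% with Spearman's rho, against 2.03% and 1.39%. Depth limits Ifi204, with 2 to 11 reads per library.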
